A study of Mus musculus with 14 samples.

Results

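The immediate early transcription factors described here are 10 genes of the 23412 in the deposited gene table: the AP-1 genes Fos, Fosb, Fosl2 and Junb, the zinc finger genes Egr1, Egr2, Egr3 and Egr4, the nuclear receptor gene Nr4a1 and the bHLH-PAS gene Npas4. They were selected on their measured RNA and footprint levels, which were higher in Fmr1 knock-out than in control cortex. Each gene was found by its symbol in the first column of the table, and 10 of 10 were present. The genotype differences of these genes in RNA level, in footprint level and in the ratio of the 2 are therefore given as descriptions, with no p-value. Fmr1 encodes FMRP, an RNA-binding protein found on polyribosomes whose loss causes fragile X syndrome, and the series asked how its loss alters translation in the brain.

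RNA-seq and ribosome profiling were done on mouse cortex. Ribosome profiling counts footprints, the stretches of mRNA that a bound ribosome covers during nuclease digestion. Controls had the genotype Rpl22flox/flox;CamKCre+, and the knock-out group (KO) had the genotype Fmr1X-Y; Rpl22flox/flox;CamKCre+. Both groups thus carried the floxed Rpl22 (RiboTag) allele and a CamK-driven Cre, which acts mainly in forebrain excitatory neurons. The Fmr1 knock-out itself is not limited by that Cre, and no purification of tagged ribosomes is named in the protocols, so the values come from the mixed cells of the tissue. RNA was measured in control mice 1, 3, 6 and 8 and in KO mice 2, 4, 5 and 7. Footprints were measured in control mice 1, 3 and 9 and in KO mice 2, 4 and 10. The labels used here give no age and no treatment. In bulk tissue, fewer cells of a type and less RNA per cell cannot be told apart.

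Immediate early genes are transcribed within minutes of synaptic activity, from promoters that are already bound by factors such as CREB and SRF, and without new protein synthesis. Calcium entry and kinase cascades carry the signal to these factors. Most of the resulting transcripts and proteins are short-lived, and the encoded factors in turn set the later wave of activity-dependent transcription. In cortex their levels are widely used as a record of recent neuronal activity. FOS family and JUN family proteins pair to form AP-1, EGR proteins bind GC-rich sites, NR4A1 is an orphan nuclear receptor, and NPAS4 is a neuron-specific factor that responds to calcium entry.

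Promoter windows from RefSeq (build GRCm38.p6) were matched by symbol for 8 of the 10 genes. The 250 bases before the start are shown for 5 of them, because these genes differ in their matches to the core of the cAMP response element (CRE). Capitals mark that core, TGACG on either strand (CGTCA on the strand shown).
Fos (chr12:85473640-85473889, + strand): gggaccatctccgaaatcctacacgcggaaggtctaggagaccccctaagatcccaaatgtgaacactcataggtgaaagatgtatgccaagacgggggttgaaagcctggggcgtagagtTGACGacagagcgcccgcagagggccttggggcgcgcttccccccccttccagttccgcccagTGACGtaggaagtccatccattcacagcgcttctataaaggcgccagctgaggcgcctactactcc
Nr4a1 (chr15:101266596-101266845, + strand): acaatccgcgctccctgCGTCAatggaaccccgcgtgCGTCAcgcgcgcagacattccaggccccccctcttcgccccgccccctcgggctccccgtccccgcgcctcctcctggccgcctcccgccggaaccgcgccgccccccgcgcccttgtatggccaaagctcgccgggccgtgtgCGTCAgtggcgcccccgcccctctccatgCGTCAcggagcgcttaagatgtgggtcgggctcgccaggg
Npas4 (chr19:4989972-4990221, - strand): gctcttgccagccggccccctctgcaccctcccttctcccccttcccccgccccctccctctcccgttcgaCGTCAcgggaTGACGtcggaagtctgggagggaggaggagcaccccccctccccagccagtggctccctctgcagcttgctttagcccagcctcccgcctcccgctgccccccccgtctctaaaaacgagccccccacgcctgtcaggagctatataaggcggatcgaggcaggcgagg
Egr4 (chr6:85513590-85513839, - strand): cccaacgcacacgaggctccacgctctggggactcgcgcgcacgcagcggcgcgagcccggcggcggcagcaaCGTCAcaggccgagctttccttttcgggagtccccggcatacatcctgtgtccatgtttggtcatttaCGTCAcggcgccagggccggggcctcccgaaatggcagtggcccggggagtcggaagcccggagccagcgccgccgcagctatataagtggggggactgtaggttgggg
Fosl2 (chr5:32136222-32136471, + strand): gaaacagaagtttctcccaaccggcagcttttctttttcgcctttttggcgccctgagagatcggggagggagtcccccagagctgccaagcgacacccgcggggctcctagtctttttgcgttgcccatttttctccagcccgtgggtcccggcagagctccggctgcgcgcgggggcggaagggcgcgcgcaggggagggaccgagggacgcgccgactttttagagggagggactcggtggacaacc

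The Fos window held 2 matches to the CRE core, the nearer of them 66 bases before the start. Nr4a1 held 4 matches, the nearest 40 bases before the start. Npas4 held 2, at 179 and 169 bases, and Egr4 held 2, at 177 and 109 bases. Fosb and Junb held 1 each, 60 and 106 bases before the start, and Fosl2 held 0. Egr2 has 5 annotated windows, of which 3, overlapping each other, held 2 matches each. A match to TGACG was present in 17.8% of all 32851 RefSeq windows of this length. The full palindrome TGACGTCA, which contains the core on both strands, was in 0 of the members' windows and in 1.55% of all windows. The CArG box, the site read by SRF, was found only in Egr2 among the 8 genes, in 4 of its 5 windows, against 1.47% of all windows. The AP-1 site TGANTCA was in 0 of the members' windows and in 6.75% of all windows. These matches describe letters in a short window and say nothing about binding or about sites outside it. Egr1 and Egr3 had no window and were not searched.

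The table held between 8847547 and 11371851 counts per RNA library and between 4124065 and 6033030 per footprint library, and levels are given as CPM, counts scaled to a common library size after TMM normalization. Fmr1, the targeted gene, had 82.9 ± 8.36 CPM in control RNA and 21.7 ± 2.40 in KO RNA (SD, n = 4 each). Its footprints were at 113 ± 1.99 and 7.44 ± 1.43 CPM (SD, n = 3 each), so no library went against its genotype label. Control mouse 8 and KO mouse 5 stood apart in the RNA of the genes described here. In pairs of libraries of 1 genotype, the chi-square of the counts per degree of freedom was 5.64 to 6.02 for pairs with mouse 5, against 1.18 to 1.32 among KO mice 2, 4 and 7. Among controls it was 10.6 and 11.8 for mouse 8 with mice 1 and 3 and 4.03 for mouse 8 with mouse 6. Control mouse 6 also departed from mice 1 and 3, at 4.12 and 4.56, while mice 1 and 3 differed by 1.99. The same quantity was 1.20 to 1.46 between footprint libraries of 1 genotype.

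Marker lists of cell types and regions were summed in each library beside the results. The 5 choroid plexus markers summed to 281 CPM in mouse 8 and 120 CPM in mouse 5, against 6.53 to 20.02 CPM in the other RNA libraries, with Kcne2 at 0 in at least 1 of them. The 6 endothelial markers summed to 97.1 and 102 CPM in mice 8 and 5, against 125 to 179 CPM in the others. The 8 markers of cortical excitatory neurons were detected in each library, and summed to 2287 to 2559 CPM in control RNA and 2888 to 3190 CPM in KO RNA. In footprints they summed to 4542 to 4652 CPM in controls and 4290 to 4426 CPM in KO, an order set by Camk2a. Without Camk2a the other 7 markers summed to 1422 to 1451 CPM in control footprints and 1483 to 1518 CPM in KO footprints, and to 1862 to 2013 and 2158 to 2239 CPM in RNA. The 6 hypothalamic markers summed to 34.4 to 65.3 CPM in control RNA and 14.99 to 21.2 CPM in KO RNA, with 3 of 5 tested lower and Hcrt at 0 in at least 1 library. In footprints they summed to 91.8 to 102 and 33.4 to 35.2 CPM, with 5 of 5 tested lower and Agrp, which was not tested, at 0 in at least 1 library. Oligodendrocyte markers summed to 4665 to 5118 CPM in control RNA and 4052 to 4394 CPM in KO RNA. Sums for inhibitory neurons, astrocytes, microglia, red blood cells and striatum overlapped between genotypes in RNA. Without mice 5 and 8 they did not overlap for astrocytes (944 to 993 CPM in controls, 889 to 920 CPM in KO), striatum (304 to 317 against 338 to 352 CPM) or red blood cells (143 to 422 against 114 to 131 CPM). In footprints the sums did not overlap for astrocytes (1631 to 1674 CPM in controls, 1516 to 1535 CPM in KO), oligodendrocytes (8011 to 8160 against 7797 to 7850 CPM), inhibitory neurons (1621 to 1667 against 1694 to 1721 CPM) or endothelium (225 to 232 against 217 to 222 CPM). They did not overlap either for choroid plexus (12.5 to 14.4 against 5.69 to 11.2 CPM, with Folr1 and Kcne2 at 0 in at least 1 library) and red blood cells (17.0 to 19.1 against 13.7 to 15.9 CPM, with Hba-a1 at 0 in at least 1 library), but did for microglia and striatum. The part of these differences in the results below was not tested.

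Each of the 10 genes had a higher mean in KO cortex in both assays. The median fitted difference was 1.32 on the log2 scale in RNA and 2.004 in footprints, beside medians of -0.00 and 0.01 over all genes tested. In footprints every KO library was above every control library for 10 of 10 genes, where 18.1% of the 12158 tested genes had that order. In RNA this held for 4 of 10 genes, Fos, Fosb, Egr4 and Npas4, where 7.10% of the 13507 tested genes had it. For the other 6 genes KO mouse 5 lay below control mouse 8. Without mice 5 and 8, an alternative added after the values were seen, the RNA groups did not overlap for 10 of 10 genes, where 18.5% of all tested genes had the same order. Since these libraries chose the genes, nothing is read from those counts.

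**Figure D1:**
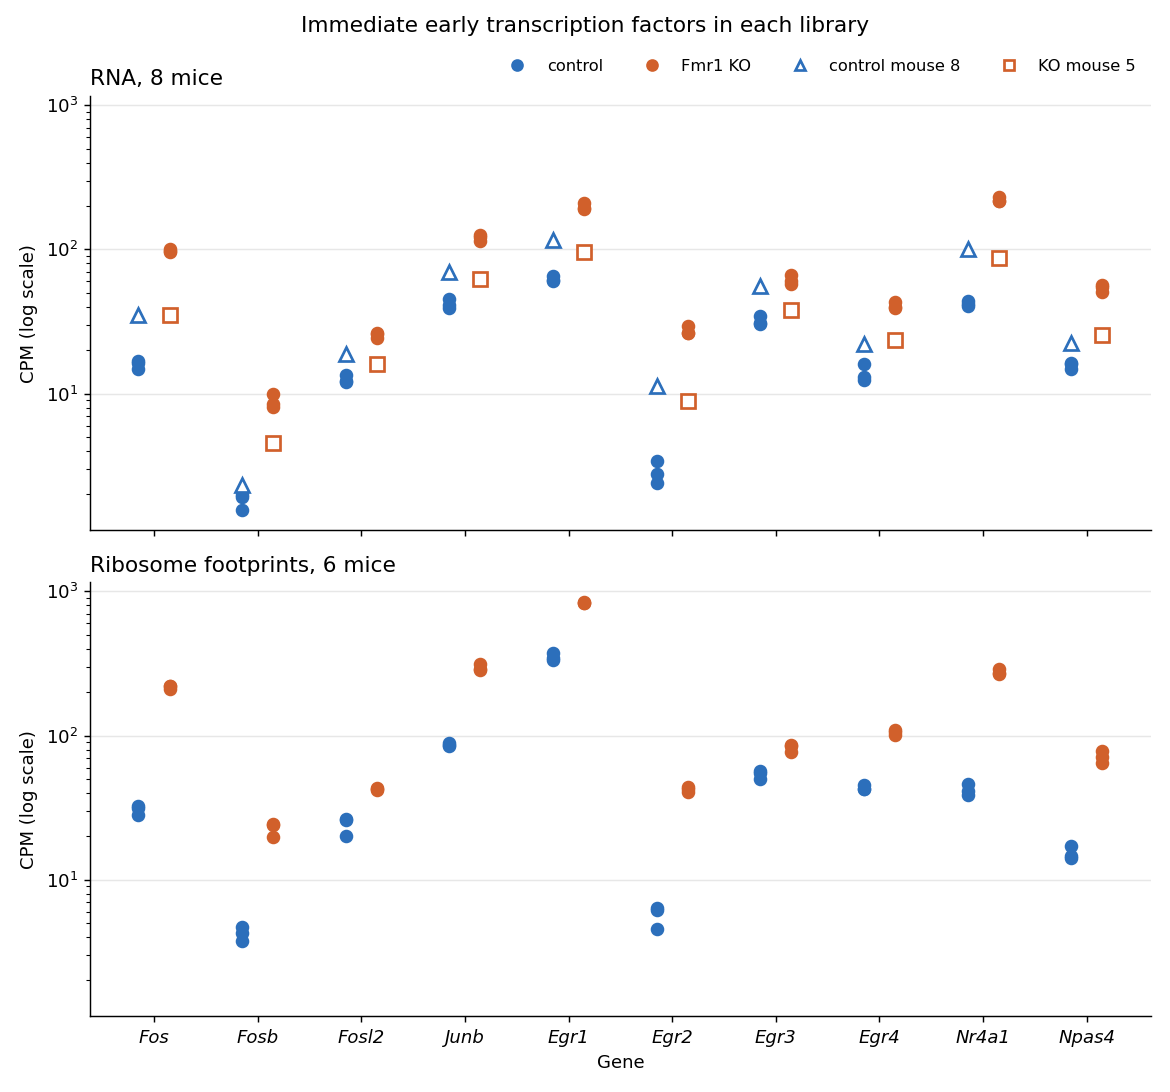
Each point is the CPM (log scale) of 1 gene in 1 library, with RNA from 8 mice above and footprints from 6 mice below; blue is control, orange is KO, and open symbols mark RNA of control mouse 8 and KO mouse 5. In footprints the groups do not overlap for 10 of 10 genes, and in RNA the 2 open symbols lie between the other controls and the other KO mice.

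Fos, the best known activity marker and a partner in AP-1, had 16.2, 16.8, 14.7 and 34.9 CPM in the RNA of control mice 1, 3, 6 and 8. The KO mice 2, 4, 7 and 5 had 96.4, 100.1, 97.4 and 35.3 CPM. Mouse 8 was thus the highest control and mouse 5 the lowest KO, and these 2 libraries were nearly equal. The fitted RNA difference was 1.99 ± 0.30 (SE). Fos footprints were at 31.4, 28.0 and 32.3 CPM in controls and 209, 220 and 222 CPM in KO, a difference of 2.84 ± 0.065. The footprint means stood 7.11-fold apart and the RNA means 3.99-fold.

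Fosb encodes a FOS family protein whose truncated form, ΔFosB, accumulates with repeated stimulation; the gene-level counts do not separate the forms. Its RNA was at 1.91, 1.97, 1.55 and 2.34 CPM in control mice 1, 3, 6 and 8 and at 8.49, 9.93, 8.10 and 4.53 CPM in KO mice 2, 4, 7 and 5. Mouse 5 was again the lowest KO, but at 1.94 times the level of mouse 8. The fitted difference was 2.004 ± 0.24 in RNA. Footprints were at 4.72, 3.73 and 4.25 CPM in controls and at 24.0, 19.9 and 24.5 CPM in KO, a difference of 2.44 ± 0.18.

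Fosl2 encodes FRA2, a FOS family protein that lacks the strong activation domain of FOS. In RNA it had 12.3, 12.1, 13.5 and 18.8 CPM in control mice 1, 3, 6 and 8 and at 25.9, 24.3, 26.5 and 16.0 CPM in KO mice 2, 4, 7 and 5. The groups overlapped through mice 5 and 8. The difference was 0.71 ± 0.16 in RNA, the smallest of the AP-1 genes here. Its footprints were at 26.4, 26.1 and 20.02 CPM in controls and within 42.1 to 43.2 CPM in KO, a difference of 0.82 ± 0.10.

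Junb encodes a JUN family partner of these FOS proteins. Junb RNA was at 41.0, 45.5, 39.3 and 69.6 CPM in control mice 1, 3, 6 and 8 and at 114, 126, 123 and 62.6 CPM in KO mice 2, 4, 7 and 5. Mouse 5 lay below mouse 8. The RNA difference was 1.127 ± 0.20. In footprints the 3 controls lay within 85.3 to 88.3 CPM and the 3 KO mice within 287 to 315 CPM, a difference of 1.78 ± 0.047.

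Among the EGR genes, Egr1 (also Zif268) is linked to lasting synaptic change in cortex and hippocampus. Egr1 RNA was at 65.7, 60.7, 61.6 and 116 CPM in control mice 1, 3, 6 and 8 and at 211, 195, 191 and 96.3 CPM in KO mice 2, 4, 7 and 5. Mouse 8 was above mouse 5. The difference was 1.19 ± 0.23 in RNA and 1.25 ± 0.030 in footprints. Egr1 footprints were at 346, 332 and 373 CPM in controls and at 827, 827 and 843 CPM in KO.

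Egr2, which also directs Schwann cell myelination and hindbrain patterning, had the largest fitted differences of the 10 genes, 2.18 ± 0.40 in RNA and 2.89 ± 0.14 in footprints. Its RNA was at 2.42, 3.42, 2.77 and 11.3 CPM in control mice 1, 3, 6 and 8 and at 29.3, 26.5, 26.5 and 8.95 CPM in KO mice 2, 4, 7 and 5. Mouse 8 stood at 3.94 times the mean of the other controls and mouse 5 at 32.6% of the mean of the other KO mice, the widest departures of both libraries among the 10 genes. Without these 2 libraries the RNA difference was 3.26 ± 0.13. Footprints were at 6.37, 4.58 and 6.20 CPM in controls and at 40.3, 43.7 and 42.3 CPM in KO.

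Egr3, which also acts in muscle spindle formation, had the smallest differences, 0.55 ± 0.19 in RNA and 0.62 ± 0.073 in footprints. Its RNA was at 30.2, 31.1, 34.4 and 55.8 CPM in control mice 1, 3, 6 and 8 and at 60.4, 66.4, 57.5 and 37.9 CPM in KO mice 2, 4, 7 and 5. Mouse 8 came close to the 3 higher KO mice and mouse 5 close to the 3 lower controls. Within mice 5 to 8 alone the RNA difference was 0.08, and within mice 1 to 4 alone it was 1.06. Footprints were at 57.1, 55.3 and 50.3 CPM in controls and at 77.3, 86.4 and 84.4 CPM in KO.

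Egr4, a neuron-enriched family member, had RNA at 12.4, 16.2, 13.1 and 22.02 CPM in control mice 1, 3, 6 and 8. The KO mice 2, 4, 7 and 5 had 40.0, 43.2, 39.2 and 23.4 CPM, so the groups were separated by the gap between mice 8 and 5 alone. The difference was 1.20 ± 0.19 in RNA and 1.28 ± 0.071 in footprints. Its footprints lay within 42.5 to 45.5 CPM in controls and within 102 to 109 CPM in KO.

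Nr4a1 (Nur77) encodes a nuclear receptor that acts without a known physiological ligand. Nr4a1 RNA was at 44.1, 40.7, 42.0 and 101 CPM in control mice 1, 3, 6 and 8 and at 230, 216, 218 and 87.1 CPM in KO mice 2, 4, 7 and 5. The RNA difference was 1.72 ± 0.30, and 2.39 ± 0.055 without mice 5 and 8. Its footprints were at 46.0, 39.0 and 41.3 CPM in controls and at 268, 272 and 290 CPM in KO, a difference of 2.73 ± 0.057. The footprint means stood 6.57-fold apart and the RNA means 3.30-fold.

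Npas4, which shapes inhibitory input onto active excitatory neurons, had RNA at 14.7, 16.0, 16.4 and 22.4 CPM in control mice 1, 3, 6 and 8. The KO mice 2, 4, 7 and 5 had 50.9, 55.0, 57.0 and 25.7 CPM. Mouse 5 was therefore just above mouse 8, and the groups did not overlap. The RNA difference was 1.446 ± 0.20. Footprints were at 17.2, 14.2 and 14.7 CPM in controls and at 70.7, 64.7 and 78.1 CPM in KO, a difference of 2.23 ± 0.10.

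By the size of the RNA increase, Egr2, Fosb and Fos ranked 2, 3 and 4 among the 13507 genes tested, Nr4a1 ranked 7, Npas4 ranked 8 and Egr3 ranked 179. In footprints Egr2, Fos and Nr4a1 ranked 2, 3 and 5 of 12158, and Egr3 ranked 246. For Fos the coefficient of variation was 46.1% in control RNA and 38.1% in KO RNA, against 7.39% and 3.15% in footprints. The RNA values rest on mice 8 and 5, which have no footprint library: without them they were 6.75% and 1.91%. Over the 10 genes, the RNA coefficients without these mice ran from 4.04% to 17.8% in controls and from 1.91% to 10.9% in KO, and those of footprints from 1.795% to 17.3% and from 1.11% to 10.96%.

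The 10 genes moved together across the RNA libraries. Each gene's log2 CPM was centred on its mean over the libraries of an assay, and the 10 centred values were averaged. In RNA this mean was -0.95, -0.86 and -0.95 in control mice 1, 3 and 6 and 0.96, 0.99 and 0.94 in KO mice 2, 4 and 7. Control mouse 8 was at -0.04 and KO mouse 5 at -0.09, midway between the groups. Sample titles carry a prefix shared by mice 5 to 8, whose meaning the labels do not state. The median RNA difference of the 10 genes was 0.96 within mice 5 to 8, 1.74 within mice 1 to 4 and 1.32 with the prefix as a block. The footprint set does not include mice 5 and 8, and there the controls lay between -0.99 and -0.85 and the KO mice between 0.90 and 0.97. Across the 8 RNA libraries the pairwise Pearson correlation among the 10 genes ranged from 0.81 to 0.998, with a median of 0.98. These points share libraries and a genotype difference that chose the genes, so the correlations describe the pattern and are not a test. Mice 5 and 8 were also the libraries with the high choroid plexus and low endothelial sums given above, and whether these go with the intermediate levels was not tested.

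**Figure D2:**
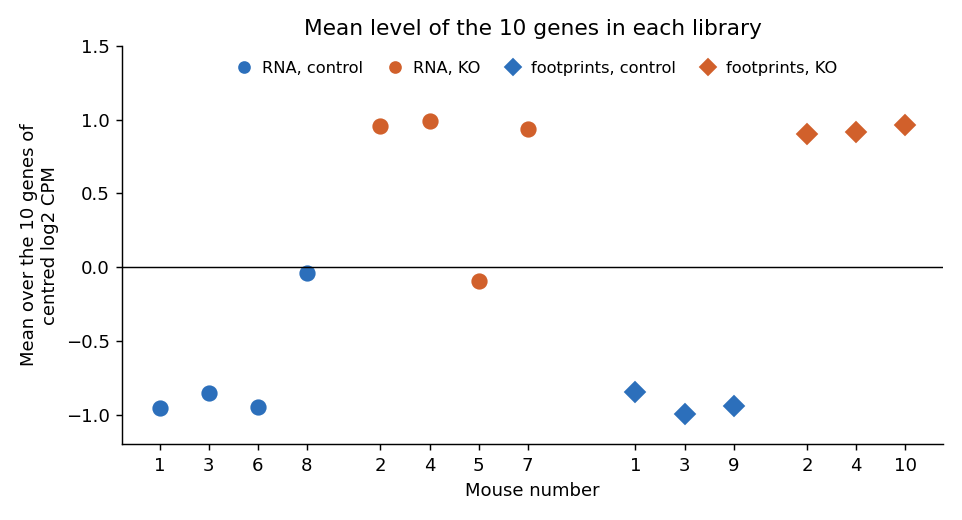
Each point is the mean over the 10 genes of centred log2 CPM in 1 library, with mouse numbers on the x axis, circles for RNA, diamonds for footprints, blue for control and orange for KO. Control mouse 8 (-0.04) and KO mouse 5 (-0.09) meet near 0, while the other libraries of both assays lie near -1 or 1.

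The genes outside the set whose RNA pattern was most like this mean over the 8 RNA libraries, among 13409 genes that averaged 1 CPM or more, were Arc, Dusp1, Cuedc1, Trib1, Arl4d and Bhlhe40. Their Pearson correlations with the mean were 0.996, 0.993, 0.990, 0.988, 0.986 and 0.985. Over the 6 footprint libraries the same correlations were 0.999, 0.997, 0.73, 0.991, 0.993 and 0.97. Arc, which encodes a synaptic protein made near active synapses, had 82.8 CPM in control RNA and 274 in KO RNA as group means, with 151 in mouse 8 and 136 in mouse 5. Dusp1, a dual-specificity phosphatase, had group means of 23.8 and 62.0 CPM, with 35.8 in mouse 8 and 30.2 in mouse 5. In both genes mouse 8 was above the control mean and mouse 5 below the KO mean. The points are the same libraries, which differ in genotype, so these correlations are descriptions.

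The next comparison asked whether footprints differed between genotypes by more than RNA did. The measure is the genotype difference in footprints minus that in RNA, the ratio difference, fitted over the 14 libraries. It uses the same genotype contrast as the choice of the genes, so it is a description too. With all libraries it was above 0 for 10 of 10 genes, with a median of 0.54 on the log2 scale beside -0.01 over all 12145 genes tested. It reached 0.99 ± 0.40 (SE) for Nr4a1, 0.83 ± 0.39 for Fos, 0.77 ± 0.30 for Npas4, 0.70 ± 0.59 for Egr2 and 0.65 ± 0.25 for Junb. For Fosb it was 0.43 ± 0.35, and for Fosl2, Egr4, Egr1 and Egr3 it lay between 0.05 and 0.10.

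The direction of the median depended on the RNA of mice 5 and 8. Mice 1 to 4 were measured in both assays, and with the mouse number as a block the median ratio difference was -0.077. Mice 1 to 4 without the block gave -0.074, so the change did not need the pairing. With the block the values split by gene. Junb (0.34 ± 0.095), Npas4 (0.32 ± 0.17), Fos (0.28 ± 0.14), Nr4a1 (0.27 ± 0.10) and Fosb (0.13 ± 0.40) were above 0. Egr3 (-0.51 ± 0.13), Egr1 (-0.41 ± 0.071), Fosl2 (-0.35 ± 0.17), Egr4 (-0.29 ± 0.14) and Egr2 (-0.28 ± 0.30) were below 0. Leaving out only the RNA of mice 5 and 8, an alternative added after the values were seen, gave a median of -0.030 and the same sign as the block for each gene. Egr1 (-0.43 ± 0.068), Egr2 (-0.37 ± 0.23), Egr3 (-0.35 ± 0.11), Egr4 (-0.30 ± 0.12) and Fosl2 (-0.21 ± 0.15) were below 0. Npas4 (0.42 ± 0.14), Nr4a1 (0.33 ± 0.088), Junb (0.24 ± 0.084), Fos (0.20 ± 0.11) and Fosb (0.15 ± 0.31) were above 0. The footprint set has no counterpart of these 2 RNA libraries, in which the 10 genes had nearly equal mean levels.

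**Figure D3:**
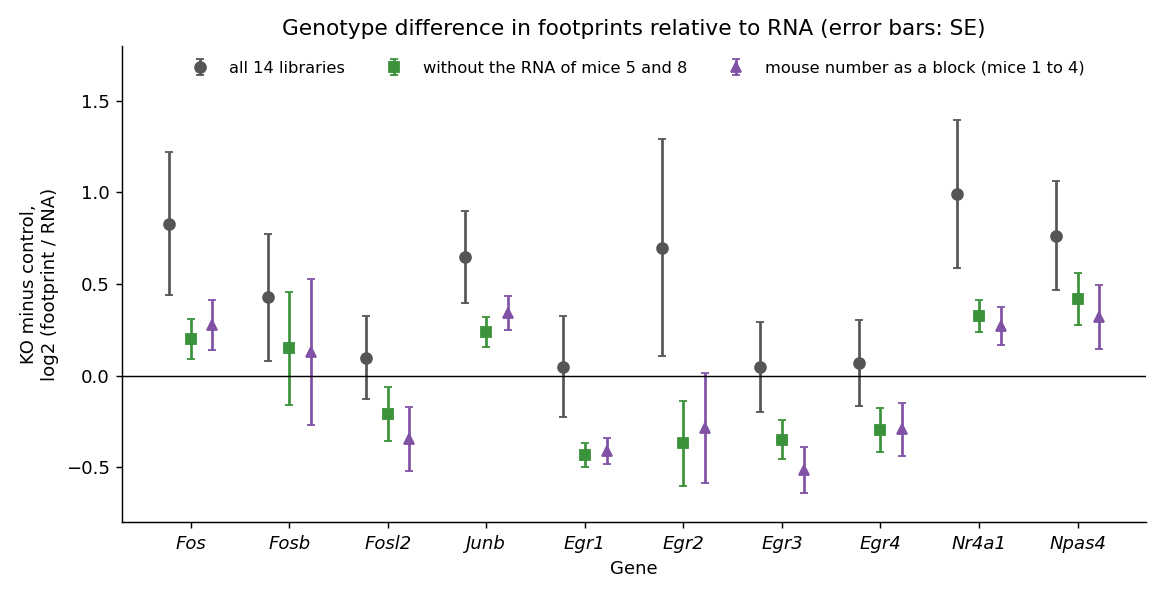
For each gene the genotype difference in footprints minus that in RNA (log2, y axis, error bars SE) is shown with all 14 libraries (grey), without the RNA of mice 5 and 8 (green) and with the mouse number as a block (purple). Grey points are above 0 for 10 of 10 genes, while Fosl2 and the 4 Egr genes lie below 0 in the other fits.

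The ratios within single mice come from libraries used in the fits above, so they restate that split and add no evidence for it. Egr1 had 5.28 and 5.47 footprint CPM per RNA CPM in control mice 1 and 3 and 3.92 and 4.24 in KO mice 2 and 4. Egr3 had 1.89 and 1.78 in controls and 1.28 and 1.30 in KO. Fosl2 had 2.15 and 2.15 in controls and 1.67 and 1.74 in KO. For these 3 genes both KO mice lay below both controls. Egr4 had 3.45 and 2.81 in controls and 2.54 and 2.53 in KO, also without overlap. Junb had 2.10 and 1.88 in controls and 2.55 and 2.49 in KO. Fos had 1.94 and 1.67 in controls and 2.17 and 2.20 in KO. Nr4a1 had 1.04 and 0.958 in controls and 1.17 and 1.26 in KO, so for these 3 genes both KO mice lay above both controls. The ratios of Fosb and Egr2 overlapped, Egr2 with 2.64 and 1.34 in controls and 1.38 and 1.65 in KO. Npas4 had 1.17 and 0.893 in controls and 1.39 and 1.18 in KO, so the lower KO ratio (1.176) was barely above the higher control ratio (1.172). In all, 4 of 10 genes had both KO ratios below both controls, an order found in 27.4% of the 12145 genes tested, and 4 of 10, Npas4 included, had both above, found in 26.2%. With 2 mice a group no permutation test could reach 0.05, so these orders are descriptions.

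**Figure D4:**
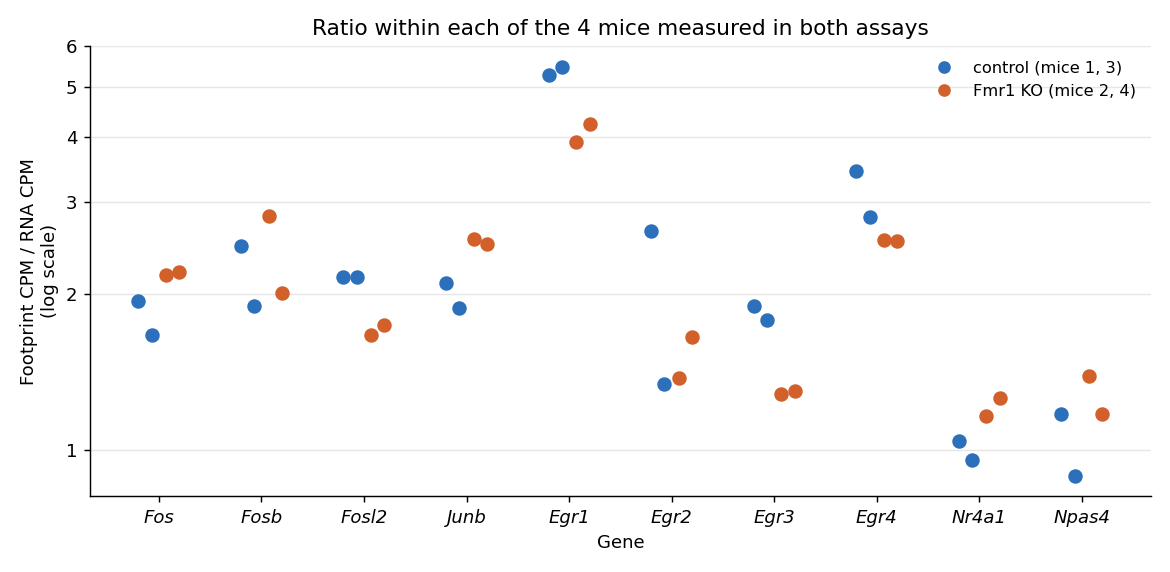
Each point is footprint CPM over RNA CPM (log scale) of 1 gene in 1 of the 4 mice measured in both assays, blue for control mice 1 and 3 and orange for KO mice 2 and 4. KO points lie below the controls for Fosl2, Egr1, Egr3 and Egr4 and above them for Fos, Junb and Nr4a1, and by a narrow gap for Npas4.

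Footprints relative to RNA within controls do not use genotype. The region, aligner and build of each assay are not stated, so their part in these ratios and in the order of genes was not tested. The ratio was tested for each gene. On this measure 6 of 10 genes differed from the typical gene in edgeR's quasi-likelihood test with Benjamini-Hochberg adjustment, where 75.3% of all 12145 genes did, so the share among the 10 genes is no higher than the background. The 6 were higher. Egr1 had a log2 ratio of 2.32 ± 0.20 (SE, adjusted p = 4.15e-10), above that of 99.5% of genes. Egr4 followed at 1.57 ± 0.18 (adjusted p = 4.24e-08), above 97.5% of genes, then Fosb at 1.21 ± 0.30 (adjusted p = 0.000929), Junb at 0.94 ± 0.19, Fosl2 at 0.88 ± 0.17 and Egr3 at 0.63 ± 0.18 (adjusted p = 0.00329). Fos was at 0.67 ± 0.32 (adjusted p = 0.0639). It passed with no filter on low counts (adjusted p = 0.0410) and without KO mouse 5 (adjusted p = 0.00452), settings in which 7 of 10 genes passed, against 63.1% and 76.3% of all genes. Egr2 (0.28 ± 0.53), Npas4 (-0.07 ± 0.24) and Nr4a1 (-0.33 ± 0.32) did not pass. Control mouse 8 carried high RNA of these genes and had no footprint library. Without it 8 of 10 genes passed, against 76.0% of all genes, with Fos at 1.05 (adjusted p = 0.00176) and Egr2 at 1.09 (adjusted p = 0.0264). The mouse block also gave 8 of 10, against 74.8% of all genes, with Fos at 0.96 and Egr2 at 0.99.

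Each RNA library has a second column of counts over exons, and its excess over the column used above, as a share of the exon count, is called the outside share here. The region counted in the column used above is not stated, so reading the excess as RNA outside that region assumes that the exon column contains it; 93 genes in which it held fewer counts were left out. The outside share was 12.5% ± 1.64 for Egr3 and 80.8% ± 1.76 for Fosl2 in controls (SD, n = 4), the lowest and the highest of the 10 genes. Between them came Npas4 at 20.2%, Nr4a1 at 26.6%, Egr4 at 32.2%, Junb at 36.7%, Fos at 37.6%, Egr2 at 53.3%, Egr1 at 61.4% and Fosb at 69.0%. Over the whole table the outside share of a library was 42.1% to 45.7%. The share is a ratio within a library, but it is set against the RNA counts on which the genes were chosen (the inside counts). A choice for high KO counts can lower the KO share, so for these genes the test is a description. Between genotypes the outside share did not pass edgeR's quasi-likelihood test for any of the 10. Of them 0 had an adjusted p under 0.05 and 0 had an unadjusted p under 0.05, against 0.313% of 11804 genes called. Fosb was at 69.0% ± 3.79 in controls and 62.1% ± 2.81 in KO, with a log2 difference of outside against inside counts of -0.40 ± 0.21 (adjusted p = 0.512). Without mice 5 and 8, an alternative added after the values were seen, the fit called 2 of 10, Egr1 at -0.35 and Nr4a1 at -0.34. Both differences run the way the choice of the genes favours, so nothing is read from these calls. In that fit 1020 genes were called, 8.60% of those tested. For Egr1 the outside share was 63.9%, 67.4% and 61.6% in control mice 1, 3 and 6 and 54.8%, 57.99% and 57.7% in KO mice 2, 4 and 7. Mouse 8 was at 52.7% and mouse 5 at 63.6%, on the opposite sides.

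Among 22 other early-response genes, most of them transcription factors, 19 could be tested in each assay. In RNA 9 of 19 were higher in KO and 0 lower, and in footprints 11 were higher and 0 lower, with list medians of 0.44 and 0.40 on the log2 scale. Over all genes 7.41% were called in RNA and 25.5% in footprints, in either direction. Some of these calls did not hold under each alternative. With libraries summed 8 of the 9 RNA calls were lost and in mice 5 to 8 alone 7 were lost, while in mice 1 to 4 alone and without mice 5 and 8 the number lost was 0. The RNA call of Csrnp1 was also lost without mouse 2, 4, 6 or 7 and that of Klf2 without mouse 2, 4 or 6. In footprints the call of Nfil3 was lost without any of the 6 mice, with DESeq2 and with no filter. The footprint call of Crem was lost with DESeq2 and without mouse 1, 2, 3, 4 or 10, and that of Klf2 with DESeq2 and without mouse 3, 4 or 9. The list was drawn up with earlier results of these data known and shares its libraries with the 10 genes, so it is not independent evidence of a direction. Btg2, an antiproliferative cofactor, rose by 1.43 ± 0.18 in RNA (adjusted p = 0.000541) and by 1.89 ± 0.16 in footprints (adjusted p = 1.2e-17). Ier2 rose by 1.31 ± 0.27 in RNA (adjusted p = 0.0106) and by 1.67 ± 0.12 in footprints (adjusted p = 9.29e-23). Nr4a3, the paralog of Nr4a1, rose by 0.996 ± 0.18 in RNA and by 1.22 ± 0.098 in footprints (adjusted p = 3.57e-19). Klf4 rose by 1.25 ± 0.34 in RNA (adjusted p = 0.0377), a call lost under 9 of 17 alternatives, among them leaving out any of mice 1, 2, 3, 4, 6 or 7. These p-values come from edgeR with Benjamini-Hochberg adjustment, and no summed fit was run for footprints.

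Family members of the 10 genes did not all pass. Jun was at 26.5 ± 1.10 CPM in control RNA and 28.5 ± 3.58 in KO RNA, and at 84.0 ± 5.32 and 82.8 ± 8.68 CPM in footprints. Jund was at 133 ± 17.1 and 136 ± 9.65 CPM in RNA. Nr4a2 was at 46.8 ± 2.29 and 46.2 ± 1.89 CPM in RNA and at 64.7 ± 5.17 and 71.0 ± 2.89 CPM in footprints. None of the 3 had an adjusted p under 0.05 in either assay. Within the AP-1 and NR4A families, Fos, Fosb, Fosl2, Junb, Nr4a1 and Nr4a3 had higher means in KO in both assays. Jun in RNA, Jund in both assays and Nr4a2 in footprints also had higher KO means, with no called difference. Jun in footprints and Nr4a2 in RNA had lower ones. The difference between family members was not tested.

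**Figure D5:**
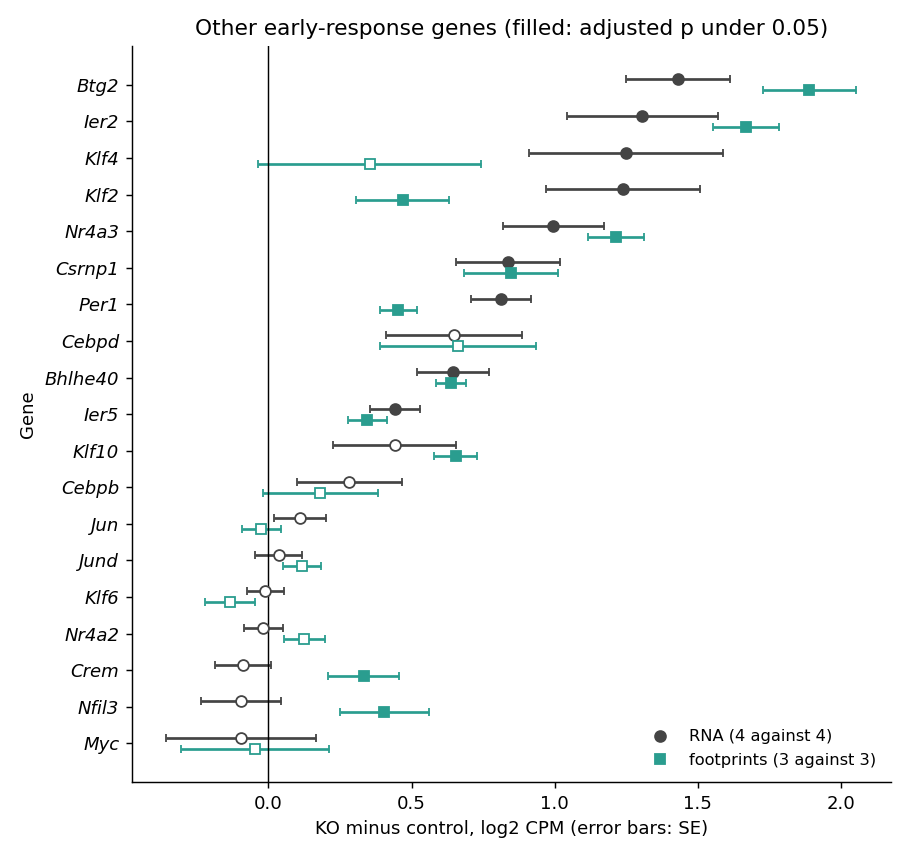
For 19 early-response genes outside the set, the KO minus control difference (log2, error bars SE) is shown in RNA (grey circles, 4 against 4 mice) and footprints (teal squares, 3 against 3 mice), filled where the adjusted p is under 0.05. Btg2, Ier2 and Nr4a3 are filled in both assays, and Jun, Jund and Nr4a2 are open in both and near 0.

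Regulators that act at immediate early promoters were read against the shares called over all genes, 7.41% in RNA, 25.5% in footprints and 7.81% in the ratio difference. This list and those in the next paragraph were drawn up with earlier results of these data known. Their p-values are therefore descriptions and not independent evidence of a direction. Of 17 such regulators, 2 were higher in KO RNA: Crtc1, a CREB coactivator, by 0.34 ± 0.089 (adjusted p = 0.0319) and Mef2a by 0.28 ± 0.060 (adjusted p = 0.0132). The Crtc1 call was lost without any of mice 1, 2, 3, 4, 6 or 7 and the Mef2a call without mouse 2 or mouse 4. In footprints 5 of 16 were lower and 0 higher. The acetyltransferase and CREB coactivator gene Crebbp fell by 0.47 ± 0.042 (adjusted p = 6.59e-17), with 256 ± 16.2 CPM in controls and 185 ± 3.29 in KO. Mkl1 and Mkl2, coactivators of SRF, fell by 0.43 ± 0.067 and by 0.21 ± 0.034. Ep300 fell by 0.24 ± 0.062 and Mef2c fell by 0.16 ± 0.025. The ratio difference was lower for 5 of 16: Crebbp (-0.52 ± 0.079), Mkl1 (-0.47 ± 0.10), Crtc1 (-0.45 ± 0.12), Mef2a (-0.38 ± 0.094) and Mkl2 (-0.29 ± 0.088). The Mkl2 call was lost under 10 of 18 alternatives, among them plain library sizes, no filter and leaving out any of mice 2, 3, 4, 6, 7, 9 or 10. The Crtc1 call was lost with plain library sizes and without mouse 1, 2, 3, 9 or 10, the Mef2a call without mouse 1, 2 or 3 and the Mkl1 call without mouse 2. Srf and Creb1 themselves were not called in any of these fits.

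Of 21 kinases and phosphatases that carry the activity signal, 2 were higher in KO RNA: Camk2a by 0.75 ± 0.099 (adjusted p = 0.000759) and Prkaca by 0.23 ± 0.054 (adjusted p = 0.0204), the latter lost with the exon columns and without any of mice 1, 2, 3, 4 or 7. In footprints 6 were higher, among them Rps6ka3 (0.30 ± 0.091), a call lost with DESeq2 and without control mouse 3, and 3 were lower: Rps6ka2 (-0.45 ± 0.091), Camk2a (-0.14 ± 0.019) and Camk2b (-0.09 ± 0.023), the last lost with plain library sizes. Camk2a thus had more RNA and fewer footprints in KO. In RNA it had 467 ± 62.0 CPM in controls and 785 ± 111 CPM in KO, and it is also the excitatory marker with the largest RNA difference. The ratio difference was -0.90 ± 0.12 for Camk2a and -0.43 ± 0.11 for Rps6ka2, and 0.22 ± 0.062 for Prkacb. The Rps6ka2 call was lost without mouse 1, 3, 4 or 10 and the Prkacb call with no filter and without mouse 1, 2, 4, 6, 9 or 10. Among 12 genes for partners and RNA decay factors of the 10 proteins, 11 were tested in RNA and 10 in footprints. Arnt, a dimer partner of NPAS4, was higher in RNA (0.54 ± 0.11, adjusted p = 0.00986), and Nab2, a corepressor of EGR proteins, was higher in footprints (0.29 ± 0.082, adjusted p = 0.00456), a call lost without mouse 4. Arnt was also the only gene of that list with a called ratio difference (-0.64 ± 0.17), lost with the mouse block, with the exon columns, in mice 1 to 4 alone and without mouse 2, 6, 9 or 10. Summed libraries also ended the RNA calls of Arnt, Crtc1, Mef2a and Prkaca and the ratio calls of Crtc1, Mef2a, Mkl2, Rps6ka2 and Prkacb, and mice 5 to 8 alone ended the RNA calls of Crtc1, Mef2a and Prkaca. With the mouse block 15 of the genes in these 4 lists had a called ratio difference, against 9 without it, where the block called 14.9% of all genes. Without the RNA of mice 5 and 8 the count was 23, where 16.7% of all genes were called.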

How the data were processed

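The authors deposited a table of raw counts per gene, with no normalization stated. The region counted and the strand setting are not given in the sources used here. The submitters' processing notes name Bowtie2, STAR 2.5, featureCounts and Subread 1.4.6, with the builds mm9 and mm10, without saying which served which library type. Per the labels' protocols, monosomes came from nuclease-digested lysates on sucrose gradients, and RNA was depleted of rRNA and made into stranded libraries. Counts were fitted with edgeR 4.0.16 (R 4.3.3; TMM, filterByExpr at a minimum count of 10, quasi-likelihood F tests, Benjamini-Hochberg over all genes, threshold 0.05). Values in CPM are relative to each library's total over all genes times its TMM factor, so they carry no gene length and do not rank genes against each other. The ratio difference is the interaction of genotype and assay. DESeq2 1.42.0, other scalings, no filter, left-out mice, mice grouped by title prefix, exon counts, summed libraries and blocks were alternatives. The fits were tested on simulated data. In 93 genes the exon column held fewer counts than the other, and these were left out of the outside share.

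The 10 genes and all gene lists were chosen with earlier results of these data known. The text names the 10 genes, Fmr1, up to 3 called genes per list and assay with the largest differences (or each, where 5 or fewer), and the 6 genes most like the mean pattern; 1 gene that this rule names is not reported here. Jun, Jund, Nr4a2, Srf, Creb1, Csrnp1, Klf2, Nfil3, Crem and some further values were chosen after their values were seen. The labels give the same mouse number to RNA and footprints of mice 1 to 4, so the mouse number pairs the assays. The correlation of their deviations from the group means over 12145 genes was 0.00, 0.01, 0.03 and -0.01, so no deviation shared by the assays of a mouse was seen. Nothing in the labels used here says whether libraries were prepared from separate dissections. The p-values therefore measure the spread between these libraries, which may be less than that between animals. The chi-square per degree of freedom was 1.18 to 1.32 among KO RNA libraries 2, 4 and 7 and 1.20 to 1.46 between footprint libraries of 1 genotype. Summing libraries was an alternative for RNA, but no summed alternative was run for the footprint fit. The marker sums without Camk2a, the coefficients of variation without mice 5 and 8 and the shares of genes whose ratios did not overlap in mice 1 to 4 were added after the values were seen.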

Additional observations from a re-analysis of the deposited data

Results flagged for a closer look

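In RNA, 8 of the 20 groups formed by the 10 genes and 2 genotypes held a library whose gap to its nearest neighbour exceeded Dixon's critical share of the group's range for 4 samples. Chance gives about 1 in 20 groups, and the genes vary together, so the 8 are not independent. Over all 13507 genes tested in RNA, 6.75% of the groups held such a library, 1.18% of control groups had mouse 8 high and 2.46% of KO groups had mouse 5 low. Control mouse 8 was the high library in 5 of them, with a ratio of 0.897 for Fos, 0.911 for Egr1, 0.887 for Egr2, 0.837 for Egr3 and 0.944 for Nr4a1. KO mouse 5 was the low library in 3, with a ratio of 0.944 for Fos, 0.862 for Egr2 and 0.903 for Nr4a1. Footprint groups have 3 libraries and were not examined in this way.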

How the results depend on the processing

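The RNA and footprint differences of the 10 genes kept their direction under each alternative run. The number of genes called in RNA (1001) was 36 with KO mice 2, 4 and 7 and control mice 1 and 3 summed, 88 in mice 5 to 8 only, 3273 in mice 1 to 4 only, 3063 without mice 5 and 8 (chosen after seeing the data), and 356 (without KO mouse 4) to 1763 (without control mouse 8) with a mouse left out. Footprint calls (3102) were 1821 with DESeq2, and no summed fit was run for footprints. Calls of the ratio difference (949) were 1810 with the mouse block, 579 with summed libraries, 1809 in mice 1 to 4, 2034 without mice 5 and 8, and 419 (without KO mouse 2) to 1289 (without KO mouse 5) with a mouse left out. Outside share calls (37) were 88 without a filter, 0 with summed libraries and in mice 5 to 8, 1020 without mice 5 and 8, and 4 to 309 with a mouse left out.

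Of the 10 genes, 2 were called in the outside share without mice 5 and 8, a description since the inside counts chose the genes. The median ratio difference (0.54) turned to -0.077 with the block, -0.074 in mice 1 to 4 and -0.030 without mice 5 and 8. It was 0.12 without control mouse 8. Egr1 turned to -0.41, -0.41 and -0.43 in these settings, and Egr3 to -0.51, -0.52 and -0.35. The median footprint difference was 2.06 with plain library sizes. Pathway genes called in RNA (14) were 2 with summed libraries, 4 in mice 5 to 8, 31 in mice 1 to 4, 33 without mice 5 and 8, and 8 to 19 with a mouse left out. In the ratio difference (9) they were 15 with the block, 4 with summed libraries, 15 in mice 1 to 4, 23 without mice 5 and 8, and 3 to 14 with a mouse left out. The mouse block is the pairing of assays by animal, and in the control ratio it added Fos and Egr2. The cause of these changes was not tested.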
